A study of Mus musculus with 16 samples.

Results

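The 39 genes described here encode the machinery that copies DNA in S phase, and they were taken by gene symbol from a list of names. The rule uses no measured values, but the list was chosen with earlier results of these data known. All 39 were found among the 19964 genes present in both deposited count tables (21484 genes in either). They were ordered by role: 12 genes of the replicative helicase, 4 of origin recognition and licensing, 8 of the DNA polymerases and primase, 6 of the sliding clamp and its loader, 3 of replication protein A, 2 of Okazaki fragment maturation and 4 of deoxynucleotide synthesis. They lie on 13 chromosomes.

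Sequencing of poly(A) RNA covered jejunal epithelial organoids of mice on a C57BL/6 background with the genotype Villin-CreERT2; Hnf4a flox/flox. Villin drives the tamoxifen-activated recombinase in the gut epithelium, and both the treated and the control organoids carried the recombinase and the floxed alleles of Hnf4a, a nuclear receptor gene. Treated organoids received 0.5 µM 4-hydroxytamoxifen (4OHT) for 24 h before they were split, and control organoids received DMSO. Each treatment was sampled at day 2 and day 4, which gives 4 groups with 4 libraries in each. Organoids with the recombinase but without floxed Hnf4a were not analysed here, so the loss of Hnf4a and the activation of the recombinase by 4OHT cannot be told apart. The protocol in the labels gives a harvest at day 4 after passage and describes no other, so the days are used as the labels name them. The labels do not say that replicates came from separate mice or cultures, and any p-value here therefore refers to the variation among libraries, part or all of which may be technical.

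Before S phase, the origin recognition complex, Cdc6 and Cdt1 load rings of MCM proteins onto origins of replication. In S phase Cdc45 and GINS join each ring to make the helicase that unwinds the double strand. Polymerase alpha with its primase lays down primers, polymerases epsilon and delta extend them on the sliding clamp PCNA, RPA covers the single strands, and Fen1 and Lig1 join the pieces of the lagging strand. In the intestine these genes are expressed mainly in the dividing cells of the crypts, and many of them are targets of E2F transcription factors.

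The members' promoters are shown because E2F is the factor best known for their control. RefSeq promoter windows (GRCm38.p6, 250 bases before to 50 after a start site) were given for 32 of the 39 genes. Windows were searched on both strands, with overlapping matches counted, for TTTGGCGC, TTTGCCGC, TTTCGCGC or TTTCCCGC as the E2F letters. At least 1 match was present for 13 of 32 member genes (40.6%) and for 704 of 27025 genes with a window (2.60%). In each role, among the genes with a match upstream of the start and outside all annotated exons, the one with the smallest p at day 4 was taken, and the 3 stretches so found are given here 5′ to 3′ on the gene's strand, with the E2F letters in capitals. The Mcm6 stretch (chr1:128359706-128359793, minus strand) lies upstream of the gene, the Pola1 stretch (chrX:93632245-93632334, minus strand) likewise, and the Cdc6 stretch (chr11:98907982-98908061, plus strand) lies before the RefSeq start in an intron of the longer GENCODE M21 gene model.
Mcm6: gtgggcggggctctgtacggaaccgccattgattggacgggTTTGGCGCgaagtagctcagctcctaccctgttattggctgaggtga
Cdc6: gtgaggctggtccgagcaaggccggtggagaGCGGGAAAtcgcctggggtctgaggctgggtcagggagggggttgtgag
Pola1: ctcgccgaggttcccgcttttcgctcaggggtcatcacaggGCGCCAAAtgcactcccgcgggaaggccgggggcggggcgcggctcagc
The last base of the capitals lies 40 bases before the start site in Mcm6 and 131 bases before it in both Cdc6 and Pola1. The letters TTTGAA or TTCGAA (the CHR element of late cell cycle promoters) were present for 21.9% of members and 21.7% of all genes. CCAAT boxes, searched as CCAAT, were present for 65.6% and 41.1%. A match is a description of the sequence and says nothing on binding in these organoids.

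Library totals ranged from 63.8 to 93.3 M counts. The SD between the libraries of a group was larger than the counting error (the square root of the reads) in all but 10 of 156 sets of 1 member in 1 group. One of the 10 was Gins1 in 4OHT at day 4, with an SD of 0.144 CPM beside a counting error of 0.384 CPM. Hnf4a, the gene targeted for deletion, measured 1013, 1044, 1046 and 979 CPM (a gene's TMM-scaled share of the library's counts) in DMSO replicates 1 to 4 at day 2 and 519, 532, 509 and 482 CPM in 4OHT. At day 4 Hnf4a measured 961, 983, 967 and 956 CPM in DMSO and 469.97, 490.3, 463 and 454 CPM in 4OHT, and the groups overlapped on neither day. Its level in 4OHT was 50.3% of control at day 2 and 48.6% at day 4, and the counts are per gene and include exons outside any deleted part. All 5 epithelial markers (Epcam, Cdh1, Vil1, Krt8, Cdx2) were measured. Their summed level ranged from 8502 to 9418 CPM in DMSO and 9935 to 10523 CPM in 4OHT at day 2, and from 5364 to 5873 CPM and 6405 to 7312 CPM at day 4, without overlap on either day. Krt8, a keratin, rose on both days, and Epcam fell at day 2. The other 3 were not called at day 2, and at day 4 the 4 besides Krt8 were not called. Markers of stromal (2 of 5 listed), immune (4 of 5) and endothelial (1 of 3) cells summed to at most 0.368, 3.57 and 0.749 CPM in any library, and the other listed markers of these cells were not analysed here. The markers of the crypt base (Lgr5, Ascl2, Olfm4, Smoc2), where cells divide, fell in 4 of 4 cases on both days, and their summed level ranged from 993 to 1079 CPM in DMSO and 548 to 596.5 CPM in 4OHT at day 2, and from 2669 to 3016 CPM and 1788 to 2123 CPM at day 4. Of the 4 goblet cell markers, 4 rose at day 2 and 3 at day 4, with sums of 3709 to 4344 CPM and 5576 to 7393 CPM at day 2 and 2850 to 4149 CPM and 5271 to 7446 CPM at day 4. Of the 5 enterocyte markers, 4 fell at day 2 (sums of 3891 to 5408 CPM in DMSO and 2728 to 3965 CPM in 4OHT), and 1 rose at day 4 with the other 4 not called (5681 to 6073 CPM and 5265 to 7259 CPM). Of the 4 Paneth cell markers, 2 fell at day 2 (sums of 1425 to 1768 CPM and 1166 to 1301 CPM) and 1 at day 4 (1782 to 2204 CPM and 1665 to 1841 CPM). Of the 3 enteroendocrine markers, 1 fell at day 2 and the others were not called on either day, nor were the 3 tuft cell markers, and the sums of both lists overlapped between the treatments. The part of these cell type markers in the results below was not tested. In bulk RNA, fewer cells in S phase and less replication RNA per cell cannot be told apart.

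The comparison of 4OHT with DMSO at each day asked how the replication genes stood after treatment to delete Hnf4a. Members of every role were lower in 4OHT, and no member rose on either day. At day 2, 18 of 39 fell (46.2%, against 14.3% of the 15897 genes tested, by edgeR's quasi-likelihood test with a Benjamini-Hochberg adjusted p below 0.05). The count of members that rose was 0 (against 16.9% of all genes). At an unadjusted p below 0.05, 0 were higher and 23 lower, and the share of all genes at that threshold was not counted. By DESeq2 0 were higher and 18 lower, against 2730 and 2465 of 15897 genes. At day 4, 38 of 39 fell (97.4%, against 11.1% of 16040 genes) and 0 rose (against 13.7%). The counts at an unadjusted p below 0.05 were also 38 and 0, again with no share counted over all genes. Those by DESeq2 were 38 and 0 as well, against 2122 genes lower and 2464 higher of 16040. All 18 that fell at day 2 fell at day 4, and 20 fell at day 4 alone.

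The changes were small beside those of Hnf4a. The median log2 fold change of the 39 members was -0.14 at day 2 and -0.31 at day 4, beside -0.003 and -0.007 over all genes tested. In terms of the control level, members stood at 75.8% to 103% (median 90.7%) at day 2 and at 66.5% to 93.1% (median 80.5%) at day 4. Every 4OHT library lay below every DMSO library for 15 members at day 2 (38.5%, against 14.8% of all genes) and for 35 at day 4 (89.7%, against 13.6%). Summed over the 39 genes, the level was 2967 ± 130 CPM (SD, n = 4) in DMSO and 2661 ± 142 CPM in 4OHT at day 2, and 3368 ± 111 CPM and 2678 ± 150 CPM at day 4. The sums of the 2 treatments overlapped at day 2, where DMSO replicate 3 (2788 CPM) lay below 4OHT replicate 4 (2819 CPM), and did not overlap at day 4.

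**Figure D1:**
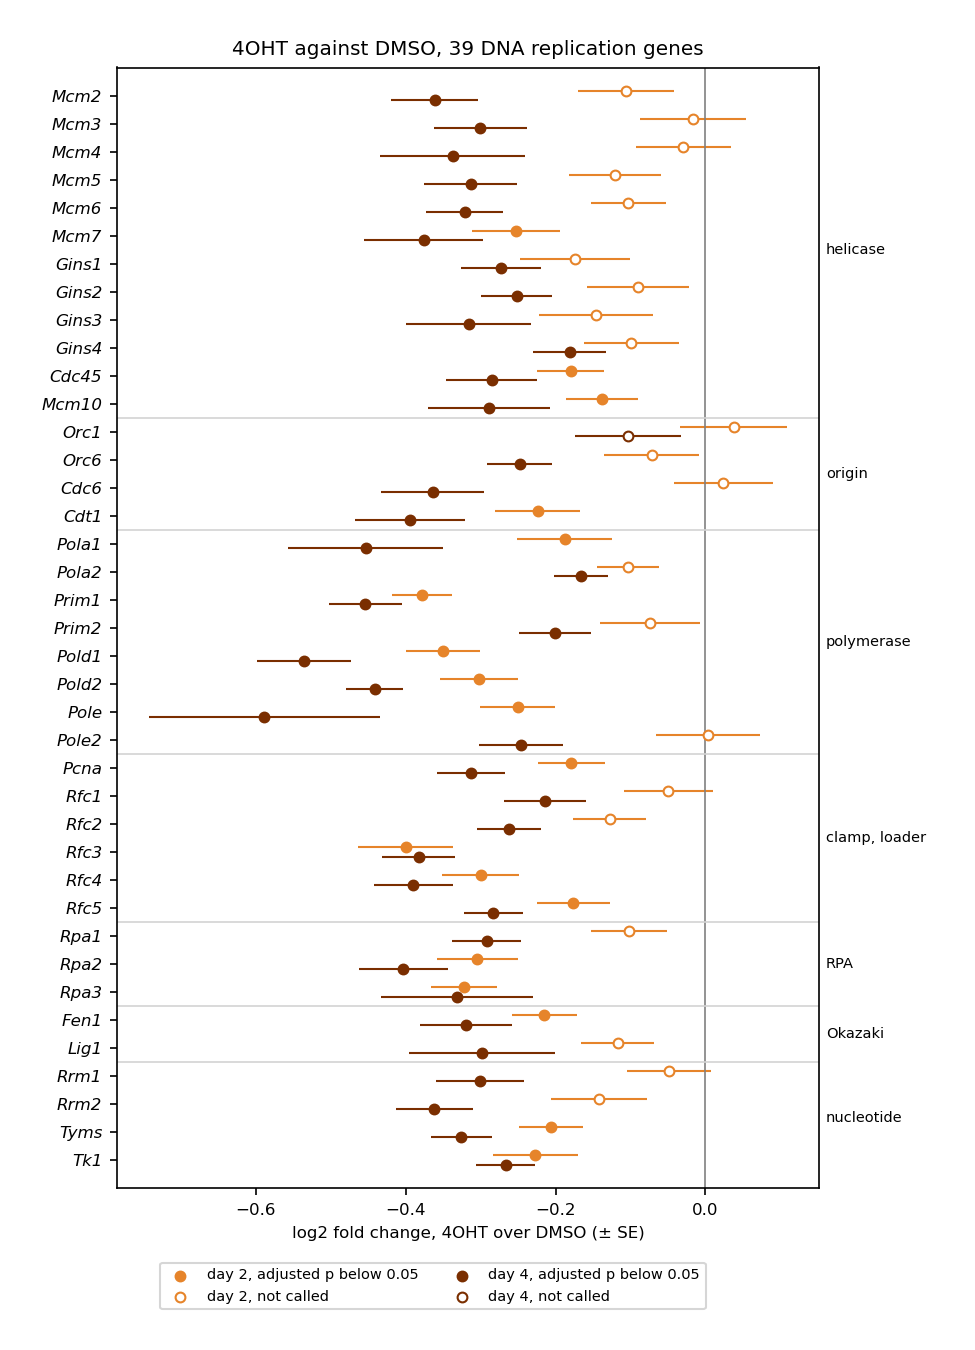
The log2 fold change of 4OHT over DMSO (horizontal axis, ± SE from edgeR, 4 against 4 libraries) is plotted for each of the 39 genes by role, at day 2 (orange) and day 4 (brown), with filled points at an adjusted p below 0.05. Filled points number 18 at day 2 and 38 at day 4, all to the left of 0, and Orc1 is the open point of day 4.

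Of the 12 helicase genes, 3 fell at day 2 (median log2 -0.11) and 12 at day 4 (median log2 -0.31). Values are in CPM, given for replicates 1 to 4 of each group in that order, and fold changes are 4OHT over DMSO with their SE. Mcm6 (ENSMUSG00000026355, chromosome 1, 128331590 to 128359664, minus strand, in GRCm38) encodes a subunit of the MCM ring and had the highest CPM of the role group. At day 2 Mcm6 measured 186, 188, 173 and 198 CPM in DMSO and 165, 166, 178 and 181 CPM in 4OHT. Mcm6 at day 4 measured 245, 247, 228 and 238 CPM in DMSO and 197, 203, 183 and 183 CPM in 4OHT. Mcm6 had log2 fold changes of -0.10 ± 0.05 (edgeR adjusted p = 0.142) at day 2 and -0.32 ± 0.05 (edgeR adjusted p = 0.00152) at day 4. At day 2 the Mcm6 level of DMSO replicate 3 fell among the 4OHT libraries, whereas at day 4 all 4OHT libraries lay below all DMSO libraries. Mcm7 encodes another subunit of the ring. In DMSO Mcm7 stood at 197, 205, 177 and 210.4 CPM at day 2 and in 4OHT at 156, 158, 169 and 176 CPM. At day 4 Mcm7 stood at 233, 252, 214 and 229 CPM in DMSO and at 190.3, 199, 163 and 162 CPM in 4OHT. Mcm7 had log2 fold changes of -0.25 ± 0.06 (edgeR adjusted p = 0.00686) at day 2 and -0.38 ± 0.08 (edgeR adjusted p = 0.00647) at day 4. Mcm7 was thus lower in 4OHT on both days without overlap, although at day 2 the nearest libraries, DMSO replicate 3 and 4OHT replicate 4, were about equal.

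The other ring genes were not called at day 2, at log2 -0.11 ± 0.06 for Mcm2, -0.02 ± 0.07 for Mcm3, -0.03 ± 0.06 for Mcm4 and -0.12 ± 0.06 for Mcm5. All of them fell at day 4. The log2 fold changes then were -0.36 ± 0.06 for Mcm2, -0.30 ± 0.06 for Mcm3, -0.34 ± 0.10 for Mcm4 and -0.31 ± 0.06 for Mcm5, so that the ring subunits lay between -0.38 for Mcm7 and -0.30 for Mcm3. Mcm4 was the ring gene whose groups overlapped at day 4, and its call was lost without DMSO replicate 1, 2 or 4 or 4OHT replicate 3 or 4 (highest edgeR adjusted p = 0.078).

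Cdc45, which joins the ring with GINS, fell on both days. At day 2 Cdc45 measured 29.1, 29.3, 26.6 and 28.8 CPM in DMSO and 24.5, 24.7, 25.8 and 24.9 CPM in 4OHT. Cdc45 at day 4 measured 26.9, 28.1, 26.9 and 27.6 CPM in DMSO and 23.6, 24.1, 21.6 and 20.4 CPM in 4OHT. Cdc45 had log2 fold changes of -0.18 ± 0.04 (edgeR adjusted p = 0.00970) at day 2 and -0.29 ± 0.06 (edgeR adjusted p = 0.00657) at day 4. Its groups overlapped on neither day. Mcm10, which helps to switch on the assembled helicase, fell less clearly. In DMSO Mcm10 stood at 58.2, 62.8, 57.2 and 62.2 CPM at day 2 and in 4OHT at 51.8, 52.9, 55.4 and 57.3 CPM. At day 4 Mcm10 stood at 64.5, 68.5, 60.1 and 62.6 CPM in DMSO and at 53.3, 60.9, 48.5 and 46.6 CPM in 4OHT. Mcm10 had log2 fold changes of -0.14 ± 0.05 (edgeR adjusted p = 0.0482) at day 2 and -0.29 ± 0.08 (edgeR adjusted p = 0.0265) at day 4. On both days DMSO replicate 3 lay below the highest 4OHT library, replicate 4 at day 2 and replicate 2 at day 4. The Mcm10 call was lost at day 2 without DMSO replicate 2 or 4 or 4OHT replicate 1, 2 or 3 (highest edgeR adjusted p = 0.141) and at day 4 without DMSO replicate 1 or 2 or 4OHT replicate 3 or 4 (highest edgeR adjusted p = 0.0718). The 4 GINS genes were not called at day 2 (log2 -0.17 to -0.09) and fell at day 4 without overlap, by 0.27 for Gins1, 0.25 for Gins2, 0.32 for Gins3 and 0.18 for Gins4 on the log2 scale. The Gins3 call was lost without DMSO replicate 3 or 4 or 4OHT replicate 3 (highest edgeR adjusted p = 0.0646), and the Gins4 call without DMSO replicate 3 or 4 or 4OHT replicate 1 or 3 (highest edgeR adjusted p = 0.0680).

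Of the 4 origin and licensing genes, 1 fell at day 2 and 3 at day 4. Cdt1, the licensing factor that brings the MCM ring to the origin, was the one called on both days. At day 2 Cdt1 measured 78.0, 75.4, 66.2 and 76.2 CPM in DMSO and 61.0, 59.7, 63.2 and 68.1 CPM in 4OHT. Cdt1 at day 4 measured 97.0, 98.2, 89.4 and 91.7 CPM in DMSO and 77.0, 79.3, 64.6 and 65.2 CPM in 4OHT. Cdt1 had log2 fold changes of -0.22 ± 0.06 (edgeR adjusted p = 0.0107) at day 2 and -0.39 ± 0.07 (edgeR adjusted p = 0.00358) at day 4. The Cdt1 groups overlapped at day 2 through DMSO replicate 3 and 4OHT replicate 4, and were apart at day 4, where 4OHT replicates 1 and 2 stood above replicates 3 and 4. Orc6 encodes the smallest subunit of the origin recognition complex. In DMSO Orc6 stood at 32.2, 31.4, 28.8 and 31.5 CPM at day 2 and in 4OHT at 26.3, 28.3, 30.2 and 32.6 CPM. At day 4 Orc6 stood at 31.0, 31.3, 31.4 and 32.3 CPM in DMSO and at 25.8, 27.3, 27.0 and 25.9 CPM in 4OHT. Orc6 had log2 fold changes of -0.07 ± 0.06 (edgeR adjusted p = 0.422) at day 2 and -0.25 ± 0.04 (edgeR adjusted p = 0.00254) at day 4. At day 2 the highest Orc6 value of all was in 4OHT replicate 4, and at day 4 each group spanned less than 2 CPM with no overlap.

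Cdc6, the loader of the MCM ring whose promoter stretch is printed above, was not called at day 2 and fell at day 4. It measured 34.3 ± 2.55 CPM (SD, n = 4) in DMSO and 34.7 ± 2.50 CPM in 4OHT at day 2, and 37.6 ± 3.10 CPM and 29.2 ± 1.81 CPM at day 4. Cdc6 had log2 fold changes of 0.02 ± 0.07 (edgeR adjusted p = 0.818) at day 2 and -0.36 ± 0.07 (edgeR adjusted p = 0.00366) at day 4. Its groups did not overlap at day 4. Orc1, the ATPase subunit of the origin recognition complex, was the member that was called on neither day. Orc1 had log2 fold changes of 0.04 ± 0.07 (edgeR adjusted p = 0.734) at day 2 and -0.10 ± 0.07 (edgeR adjusted p = 0.327) at day 4. Orc1 was lower in 4OHT in 4 of 4 same-numbered pairs at day 4 and in 2 of 4 at day 2, with overlapping groups on both days.

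**Figure D2:**
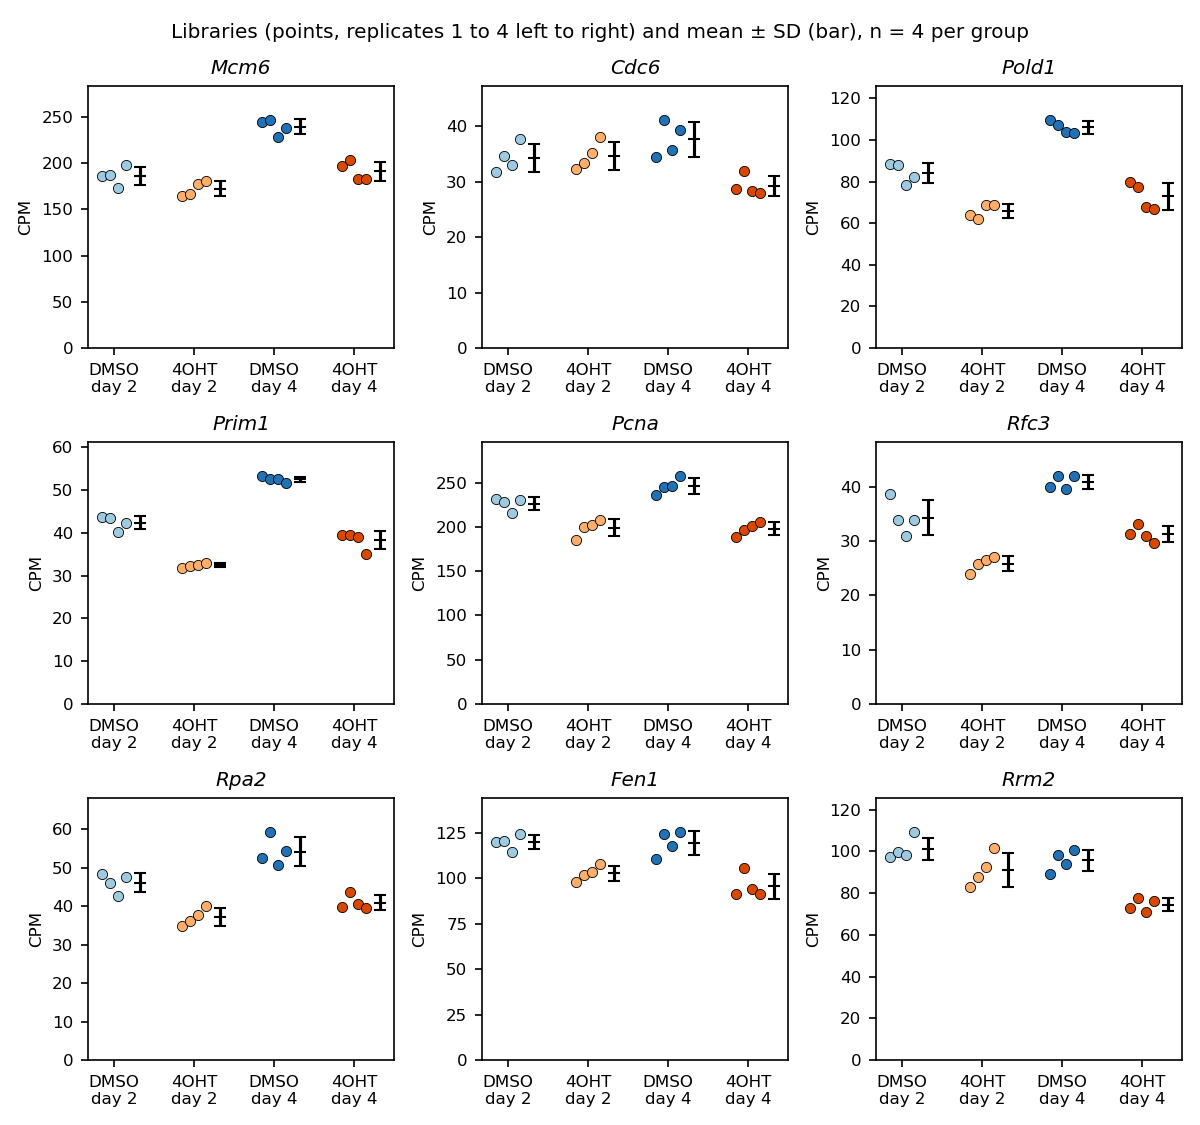
Each panel shows 1 gene, with the CPM of each library as a point (replicates 1 to 4 from left to right, 4 libraries per group) and the mean ± SD as a bar, for the 4 groups. Prim1, Pold1, Pcna, Rfc3, Rpa2 and Fen1 separate the treatments on both days, whereas Mcm6, Cdc6 and Rrm2 do so at day 4.

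Of the polymerase and primase genes, 5 of 8 fell at day 2 (median log2 -0.22) and 8 of 8 at day 4 (median log2 -0.45), all without overlap at day 4. Prim1 (ENSMUSG00000025395, chromosome 10, 128015168 to 128030037, plus strand) encodes the catalytic subunit of primase, which makes the RNA primers. At day 2 Prim1 measured 43.6, 43.3, 40.2 and 42.3 CPM in DMSO and 31.9, 32.2, 32.5 and 33.0 CPM in 4OHT. Prim1 at day 4 measured 53.2, 52.6, 52.4 and 51.6 CPM in DMSO and 39.5, 39.4, 38.99 and 35.0 CPM in 4OHT. Prim1 had log2 fold changes of -0.38 ± 0.04 (edgeR adjusted p = 2.59e-05) at day 2 and -0.45 ± 0.05 (edgeR adjusted p = 0.000197) at day 4. The Prim1 gap between the treatments was wide against the spread within each group on both days. Prim2, the other primase subunit, was not called at day 2 (log2 -0.07 ± 0.07) and fell at day 4 (log2 -0.20 ± 0.05).

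Pold1 (ENSMUSG00000038644, chromosome 7, 44532746 to 44548849, minus strand) encodes the catalytic subunit of polymerase delta, which copies the lagging strand. In DMSO Pold1 stood at 88.4, 87.9, 78.5 and 82.0 CPM at day 2 and in 4OHT at 63.7, 61.9, 68.6 and 68.6 CPM. At day 4 Pold1 stood at 109.5, 107, 104 and 103 CPM in DMSO and at 79.7, 77.5, 68.0 and 67.0 CPM in 4OHT. Pold1 had log2 fold changes of -0.35 ± 0.05 (edgeR adjusted p = 0.000236) at day 2 and -0.54 ± 0.06 (edgeR adjusted p = 0.0003) at day 4. Each 4OHT library lay below each DMSO library on both days. Pold2 is the accessory subunit of the same polymerase. At day 2 Pold2 measured 84.4, 79.7, 72.0 and 74.5 CPM in DMSO and 60.2, 61.1, 62.0 and 67.1 CPM in 4OHT. Pold2 at day 4 measured 91.4, 90.9, 89.7 and 89.6 CPM in DMSO and 66.1, 67.5, 64.6 and 67.8 CPM in 4OHT. Pold2 had log2 fold changes of -0.30 ± 0.05 (edgeR adjusted p = 0.00103) at day 2 and -0.44 ± 0.04 (edgeR adjusted p = 5.13e-05) at day 4. Pold2 had the smallest p of all 39 members at day 4, with the 4 DMSO libraries within 2 CPM of each other.

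Pole (ENSMUSG00000007080, chromosome 5, 110286306 to 110337474, plus strand), the catalytic subunit of polymerase epsilon of the leading strand, had the largest fall of the list at day 4. In DMSO Pole stood at 46.5, 49.8, 47.7 and 51.5 CPM at day 2 and in 4OHT at 42.6, 38.4, 40.9 and 41.6 CPM. At day 4 Pole stood at 70.6, 79.0, 56.3 and 59.6 CPM in DMSO and at 51.4, 52.8, 35.5 and 36.6 CPM in 4OHT. Pole had log2 fold changes of -0.25 ± 0.05 (edgeR adjusted p = 0.00274) at day 2 and -0.59 ± 0.15 (edgeR adjusted p = 0.0202) at day 4. At day 4 replicates 1 and 2 were high and replicates 3 and 4 low in both treatments, and the highest 4OHT library stayed below the lowest DMSO library. The Pole call at day 4 was lost without DMSO replicate 1 or 2 or 4OHT replicate 4 (highest edgeR adjusted p = 0.0552). With the replicate number as a block its log2 fold change was -0.60 (edgeR adjusted p = 1.60e-06). Pole2, its accessory subunit, was at log2 0.003 ± 0.07 at day 2 and fell at day 4 (log2 -0.25 ± 0.06).

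Pola1 (ENSMUSG00000006678, chromosome X, 93304767 to 93632155, minus strand) encodes the catalytic subunit of polymerase alpha. At day 2 Pola1 measured 36.3, 37.7, 40.4 and 42.7 CPM in DMSO and 32.9, 32.4, 36.6 and 35.4 CPM in 4OHT. Pola1 at day 4 measured 59.6, 58.0, 50.6 and 51.8 CPM in DMSO and 46.6, 44.1, 34.1 and 35.7 CPM in 4OHT. Pola1 had log2 fold changes of -0.19 ± 0.06 (edgeR adjusted p = 0.0416) at day 2 and -0.45 ± 0.10 (edgeR adjusted p = 0.00955) at day 4. At day 2 DMSO replicate 1 lay just below 4OHT replicate 3, and the call was lost without DMSO replicate 2, 3 or 4 or 4OHT replicate 1, 2 or 4 (highest edgeR adjusted p = 0.103). At day 4 the Pola1 groups were apart, with replicates 1 and 2 above replicates 3 and 4 in both. Pola2, the accessory subunit of polymerase alpha, moved least among the polymerase genes at day 4. In DMSO Pola2 stood at 105, 109, 97.9 and 102 CPM at day 2 and in 4OHT at 93.1, 97.3, 98.2 and 94.6 CPM. At day 4 Pola2 stood at 99.7, 100.4, 102 and 101 CPM in DMSO and at 89.4, 91.1, 89.7 and 88.5 CPM in 4OHT. Pola2 had log2 fold changes of -0.10 ± 0.04 (edgeR adjusted p = 0.0805) at day 2 and -0.17 ± 0.04 (edgeR adjusted p = 0.00766) at day 4. Its groups touched at day 2 and were narrow and apart at day 4.

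All 6 genes of the sliding clamp and its loader fell at day 4 (median log2 -0.30), and 4 of 6 fell at day 2 (median log2 -0.18). Pcna (ENSMUSG00000027342, chromosome 2, 132249162 to 132253314, minus strand) encodes the ring that holds the polymerases on DNA and is widely used as a marker of dividing cells. At day 2 Pcna measured 232, 228, 215 and 230.2 CPM in DMSO and 185, 200.2, 202 and 208 CPM in 4OHT. Pcna at day 4 measured 236, 245, 246 and 257 CPM in DMSO and 189, 197, 201 and 206 CPM in 4OHT. Pcna had log2 fold changes of -0.18 ± 0.04 (edgeR adjusted p = 0.0102) at day 2 and -0.31 ± 0.05 (edgeR adjusted p = 0.000978) at day 4. The Pcna groups overlapped on neither day. Rfc3 encodes a small subunit of replication factor C, which opens and closes the clamp. In DMSO Rfc3 stood at 38.6, 33.8, 30.9 and 33.8 CPM at day 2 and in 4OHT at 23.8, 25.8, 26.6 and 27.1 CPM. At day 4 Rfc3 stood at 39.8, 41.9, 39.6 and 41.9 CPM in DMSO and at 31.3, 33.2, 31.0 and 29.6 CPM in 4OHT. Rfc3 had log2 fold changes of -0.40 ± 0.06 (edgeR adjusted p = 0.000551) at day 2 and -0.38 ± 0.05 (edgeR adjusted p = 0.000459) at day 4. Its fall at day 2 was the largest of the 39 members, and Rfc3 was the single member whose log2 fold change was not more negative at day 4.

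Rfc4 is a further small subunit of the loader. At day 2 Rfc4 measured 31.7, 28.4, 27.2 and 28.1 CPM in DMSO and 22.1, 24.1, 23.4 and 23.6 CPM in 4OHT. Rfc4 at day 4 measured 34.9, 31.5, 34.7 and 36.3 CPM in DMSO and 25.3, 26.2, 26.8 and 26.5 CPM in 4OHT. Rfc4 had log2 fold changes of -0.30 ± 0.05 (edgeR adjusted p = 0.00105) at day 2 and -0.39 ± 0.05 (edgeR adjusted p = 0.000646) at day 4. All Rfc4 values in 4OHT were below those in DMSO on the same day. Rfc5 belongs to the same complex. In DMSO Rfc5 stood at 63.5, 60.8, 56.4 and 58.9 CPM at day 2 and in 4OHT at 48.8, 52.9, 53.8 and 55.2 CPM. At day 4 Rfc5 stood at 64.5, 63.7, 65.0 and 67.6 CPM in DMSO and at 52.8, 53.2, 53.4 and 54.6 CPM in 4OHT. Rfc5 had log2 fold changes of -0.18 ± 0.05 (edgeR adjusted p = 0.0161) at day 2 and -0.28 ± 0.04 (edgeR adjusted p = 0.000717) at day 4. At day 2 the nearest Rfc5 libraries were DMSO replicate 3 and 4OHT replicate 4, and at day 4 the gap was wider. Rfc1, the large subunit, and Rfc2 were not called at day 2 (log2 -0.05 ± 0.06 and -0.13 ± 0.05) and fell at day 4 (log2 -0.21 ± 0.06 and -0.26 ± 0.04). The Rfc1 call was lost without DMSO replicate 1 (highest edgeR adjusted p = 0.0532).

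The 3 subunits of replication protein A, which coats single-stranded DNA, all fell at day 4, and 2 of them fell at day 2. Rpa1, the large subunit that contacts DNA, had the highest CPM. At day 2 Rpa1 measured 94.9, 93.4, 86.4 and 94.9 CPM in DMSO and 80.4, 82.0, 88.9 and 91.3 CPM in 4OHT. Rpa1 at day 4 measured 98.5, 103, 98.1 and 102 CPM in DMSO and 82.7, 86.4, 77.0 and 81.0 CPM in 4OHT. Rpa1 had log2 fold changes of -0.10 ± 0.05 (edgeR adjusted p = 0.147) at day 2 and -0.29 ± 0.05 (edgeR adjusted p = 0.00138) at day 4. At day 2 DMSO replicate 3 lay among the 4OHT libraries, and at day 4 the Rpa1 groups were apart. Rpa2 is the middle subunit, which is phosphorylated when replication stalls. In DMSO Rpa2 stood at 48.3, 46.1, 42.6 and 47.7 CPM at day 2 and in 4OHT at 34.8, 36.1, 37.7 and 40.1 CPM. At day 4 Rpa2 stood at 52.5, 59.3, 50.6 and 54.4 CPM in DMSO and at 39.7, 43.8, 40.7 and 39.6 CPM in 4OHT. Rpa2 had log2 fold changes of -0.30 ± 0.05 (edgeR adjusted p = 0.00121) at day 2 and -0.40 ± 0.06 (edgeR adjusted p = 0.000961) at day 4. No Rpa2 value in 4OHT reached the DMSO range of its day.

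Rpa3 is the small subunit. At day 2 Rpa3 measured 25.7, 24.2, 23.7 and 23.6 CPM in DMSO and 19.2, 18.9, 19.99 and 19.4 CPM in 4OHT. Rpa3 at day 4 measured 23.6, 22.9, 27.9 and 28.2 CPM in DMSO and 17.7, 18.5, 22.3 and 22.8 CPM in 4OHT. Rpa3 had log2 fold changes of -0.32 ± 0.04 (edgeR adjusted p = 0.000195) at day 2 and -0.33 ± 0.10 (edgeR adjusted p = 0.0374) at day 4. At day 4 replicates 3 and 4 stood above replicates 1 and 2 in both treatments for Rpa3, and the highest 4OHT library was just below the lowest DMSO library. Its day 4 call was lost without DMSO replicate 3 or 4 or 4OHT replicate 1 or 2 (highest edgeR adjusted p = 0.0999).

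Fen1, the nuclease that trims the flaps of Okazaki fragments, fell on both days. At day 2 Fen1 measured 119.8, 120.5, 114 and 124 CPM in DMSO and 97.8, 101, 103 and 108 CPM in 4OHT. Fen1 at day 4 measured 111, 124, 118 and 125 CPM in DMSO and 91.4, 106, 93.8 and 91.1 CPM in 4OHT. Fen1 had log2 fold changes of -0.22 ± 0.04 (edgeR adjusted p = 0.00281) at day 2 and -0.32 ± 0.06 (edgeR adjusted p = 0.00408) at day 4. The treatments were apart on both days, and 4OHT replicate 2 was the highest of its group at day 4. Lig1, the ligase that seals the fragments, was called at day 4 alone. In DMSO Lig1 stood at 116, 122, 108 and 123 CPM at day 2 and in 4OHT at 104, 105, 112 and 110.2 CPM. At day 4 Lig1 stood at 146, 156, 128 and 135 CPM in DMSO and at 125, 131, 102 and 101 CPM in 4OHT. Lig1 had log2 fold changes of -0.12 ± 0.05 (edgeR adjusted p = 0.0910) at day 2 and -0.30 ± 0.10 (edgeR adjusted p = 0.0482) at day 4. The Lig1 groups overlapped on both days, at day 4 through DMSO replicate 3 and 4OHT replicate 2. Its call was lost without DMSO replicate 1, 2, 3 or 4 or 4OHT replicate 3 or 4 (highest edgeR adjusted p = 0.123), and also with no filter on low counts or a filter of 1 CPM.

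Among the 4 genes of deoxynucleotide synthesis, 2 fell at day 2 (median log2 -0.17) and 4 at day 4 (median log2 -0.31). Tyms encodes thymidylate synthase, which makes the thymidine nucleotide from that of deoxyuridine. At day 2 Tyms measured 53.7, 51.5, 49.8 and 53.0 CPM in DMSO and 43.0, 43.6, 45.7 and 47.1 CPM in 4OHT. Tyms at day 4 measured 54.4, 56.9, 57.0 and 58.3 CPM in DMSO and 44.2, 46.0, 45.7 and 44.8 CPM in 4OHT. Tyms had log2 fold changes of -0.21 ± 0.04 (edgeR adjusted p = 0.00364) at day 2 and -0.33 ± 0.04 (edgeR adjusted p = 0.000424) at day 4. The Tyms groups did not overlap. Tk1, the cytosolic thymidine kinase, salvages thymidine. In DMSO Tk1 stood at 81.4, 76.5, 68.1 and 71.4 CPM at day 2 and in 4OHT at 61.5, 58.9, 65.8 and 66.5 CPM. At day 4 Tk1 stood at 75.8, 78.5, 76.1 and 76.5 CPM in DMSO and at 62.5, 64.1, 62.2 and 66.0 CPM in 4OHT. Tk1 had log2 fold changes of -0.23 ± 0.06 (edgeR adjusted p = 0.00987) at day 2 and -0.27 ± 0.04 (edgeR adjusted p = 0.00106) at day 4. At day 2 the lowest DMSO library, replicate 3, lay just above the highest 4OHT library, and at day 4 the gap was wider.

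Rrm1 and Rrm2 are the large and small subunits of ribonucleotide reductase, which makes deoxynucleotides from ribonucleotides. At day 2 Rrm1 measured 159, 161, 161 and 174 CPM in DMSO and 147, 148, 168 and 167 CPM in 4OHT. Rrm1 at day 4 measured 179, 187, 171 and 179 CPM in DMSO and 153, 154, 131 and 142 CPM in 4OHT. Rrm1 had log2 fold changes of -0.05 ± 0.06 (edgeR adjusted p = 0.554) at day 2 and -0.30 ± 0.06 (edgeR adjusted p = 0.00455) at day 4. For Rrm1 4OHT replicates 3 and 4 stood above 3 of the 4 DMSO libraries at day 2, and at day 4 all 4OHT libraries were lower. Rrm2 measured 101 ± 5.47 CPM (SD, n = 4) in DMSO and 91.3 ± 8.15 CPM in 4OHT at day 2, and 95.7 ± 5.05 CPM and 74.4 ± 3.10 CPM at day 4. Rrm2 had log2 fold changes of -0.14 ± 0.06 (edgeR adjusted p = 0.118) at day 2 and -0.36 ± 0.05 (edgeR adjusted p = 0.000808) at day 4. In the fit with the replicate block Rrm2 was also called at day 2, which made 19 members.

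The libraries of a group moved together across the list. In 4OHT at day 2, replicate 4 was the highest of its group for 29 members and replicate 1 the lowest for 32. In DMSO at day 2, replicate 3 was the lowest for 30 members. At day 4, replicate 2 was the highest for 19 members in DMSO and for 24 in 4OHT. The split of replicates 1 and 2 from 3 and 4, noticed at day 4 after the values were seen, was complete in both treatments for 14 members. For 11 of them replicates 1 and 2 were higher (Mcm4, Mcm6, Mcm7, Mcm10, Cdt1, Pola1, Prim1, Pold1, Pole, Lig1 and Rrm1), with the widest ratio in Pole at 1.29 in DMSO and 1.45 in 4OHT. For 3 of them replicates 3 and 4 were higher (Pcna, Rfc5 and Rpa3), with the widest ratio in Rpa3 at 0.830 in DMSO and 0.802 in 4OHT. None of these counts was made over all genes, so whether the shifts are particular to the list was not tested.

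Within same-numbered pairs of day 4, all 39 members were lower in 4OHT in 4 of 4 pairs (against 29.2% of 16033 genes), and 21 were so at day 2 (against 24.8% of 15892 genes). Same-numbered libraries of day 4 deviated together from their group means, with correlations of 0.63 to 0.81 over 9686 genes. With the replicate number as a block at day 4, 38 members fell, against 22.2% of all genes in that fit. The fits with a library left out, in which some day 4 calls were lost, did not use this block. For the members concerned, the edgeR adjusted p with the block was 3.36e-05 for Mcm4, 0.000168 for Mcm10, 0.00715 for Gins3 and 0.00298 for Gins4. It was 0.000826 for Rfc1, 5.78e-05 for Rpa3, 7.14e-05 for Lig1 and 1.60e-06 for Pole. The block rests on a pairing read from these data.

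**Figure D3:**
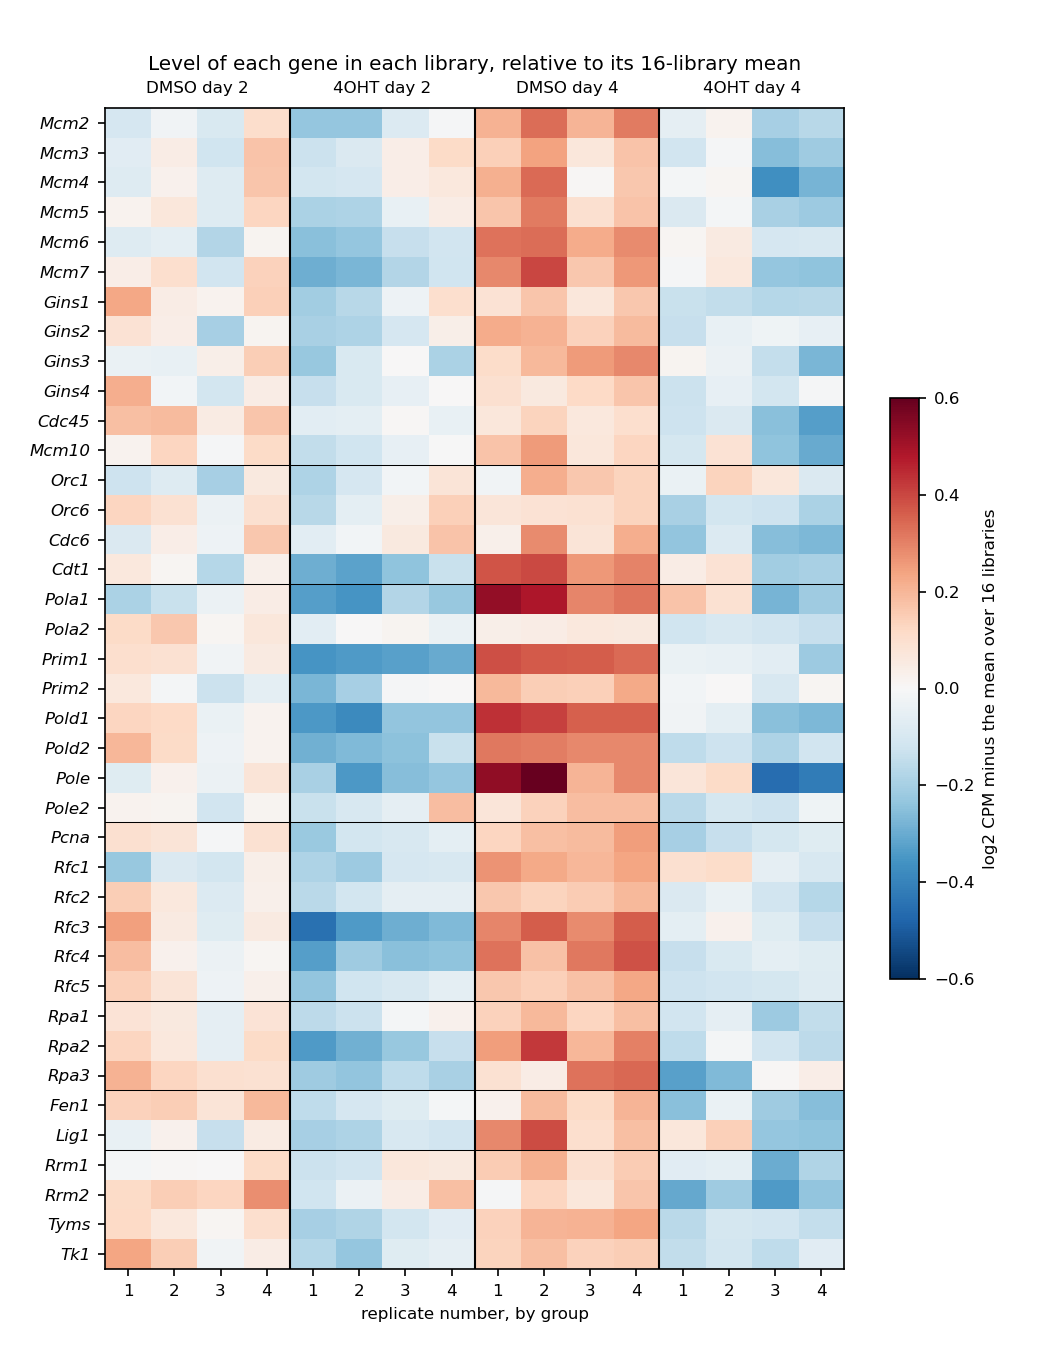
Each row is 1 of the 39 genes by role and each column 1 of the 16 libraries, and the colour gives the log2 CPM of the library minus the mean of that gene over all 16 libraries. The 4 libraries of DMSO at day 4 are red in most rows, that group having the highest mean for 35 of 39 genes, and the 4OHT libraries are mostly blue, with the lowest mean at day 2 for 21 genes and at day 4 for 17.

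The difference between the treatment effects of the 2 days was tested by the interaction over all 16 libraries, which shares those libraries with the comparisons above. It was negative for 38 of 39 members (median -0.14 on the log2 scale, beside 0.006 over all genes), but no member was called by edgeR (0 against 0.476% of 16597 genes). At an unadjusted p below 0.05, 10 members were lower and 0 higher, and the share of all genes at that threshold was not counted. DESeq2 called 1 member lower, Cdc6, against 247 of 16597 genes. Cdc6 had the smallest p, with a difference of -0.38 ± 0.10 (edgeR adjusted p = 0.0550), followed by Rrm1 at -0.25 ± 0.08 (edgeR adjusted p = 0.133) and Mcm6 at -0.21 ± 0.07 (edgeR adjusted p = 0.139). With a block for each replicate number within each day, 9 members were lower, against 4.10% of all genes: Mcm2, Mcm3, Mcm4, Mcm6, Cdc6, Pola1, Pole, Rrm1 and Rrm2. The numbers paired the libraries at day 4 and not at day 2, where the correlations were -0.11 to 0.47. Across the 39 genes the log2 fold changes of day 2 and day 4 had Pearson's r of 0.65 and Spearman's rho of 0.66, a description over genes that are not independent.

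The comparison of the days within each treatment asked how the replication genes differed between the labelled days. The labels describe no day 2 harvest, so time cannot be told apart from any other difference between the day 2 and day 4 libraries. In DMSO, 26 of 39 members rose from day 2 to day 4 (against 28.7% of 16088 genes) and 0 fell (against 3989 genes). At an unadjusted p below 0.05, 28 were higher and 0 lower, and the share of all genes at that threshold was not counted. By DESeq2 21 were higher and 0 lower, against 4325 and 4297 of 16088 genes. The median log2 change was 0.17, beside 0.03 over all genes, and the groups did not overlap, with day 4 above, for 20 members (against 24.4% of all genes). The largest rises were in Pola1 at log2 0.50 ± 0.07 (edgeR adjusted p = 5.68e-05), Pole at 0.46 ± 0.09 (edgeR adjusted p = 0.00121), Mcm6 at 0.38 ± 0.05 (edgeR adjusted p = 5.38e-05) and Cdt1 at 0.36 ± 0.06 (edgeR adjusted p = 0.000197). By role, 7 of 8 polymerase genes, 7 of 12 helicase genes, 5 of 6 clamp and loader genes, 2 of 4 origin genes, 2 of 3 RPA genes, 1 of 2 Okazaki genes and 2 of 4 nucleotide genes rose. The count fell to 17 without DMSO day 2 replicate 2, to 15 without DMSO day 2 replicate 3, to 16 without either DMSO day 4 replicate 2 or replicate 4, and to 17 with no filter. It was 18 with DESeq2 size factors in edgeR, and 28 with a filter of 1 CPM or with the replicate block.

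In 4OHT few members differed between the days. By edgeR 5 rose (against 25.9% of 15962 genes) and 2 fell (against 23.5%), with a median log2 change of 0.03, beside 0.01 over all genes. The 5 that rose were Rfc3 at log2 0.28 ± 0.06 (edgeR adjusted p = 0.00237), Prim1 at 0.25 ± 0.05 (edgeR adjusted p = 0.00275), Rfc4 at 0.18 ± 0.05 (edgeR adjusted p = 0.0111), Rfc1 at 0.18 ± 0.06 (edgeR adjusted p = 0.0318) and Mcm6 at 0.16 ± 0.06 (edgeR adjusted p = 0.0338). The calls of Mcm6 and Rfc1 were each lost without 4OHT day 2 replicate 1, 2 or 3 or day 4 replicate 1 or 2 (highest edgeR adjusted p = 0.0991 for Mcm6 and 0.0987 for Rfc1). The 2 that fell were Rrm2 at log2 -0.29 ± 0.06 (edgeR adjusted p = 0.00386) and Cdc6 at -0.24 ± 0.07 (edgeR adjusted p = 0.0116). These comparisons share their libraries with the treatment comparisons, so the values stand side by side and are not independent of them.

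**Figure D4:**
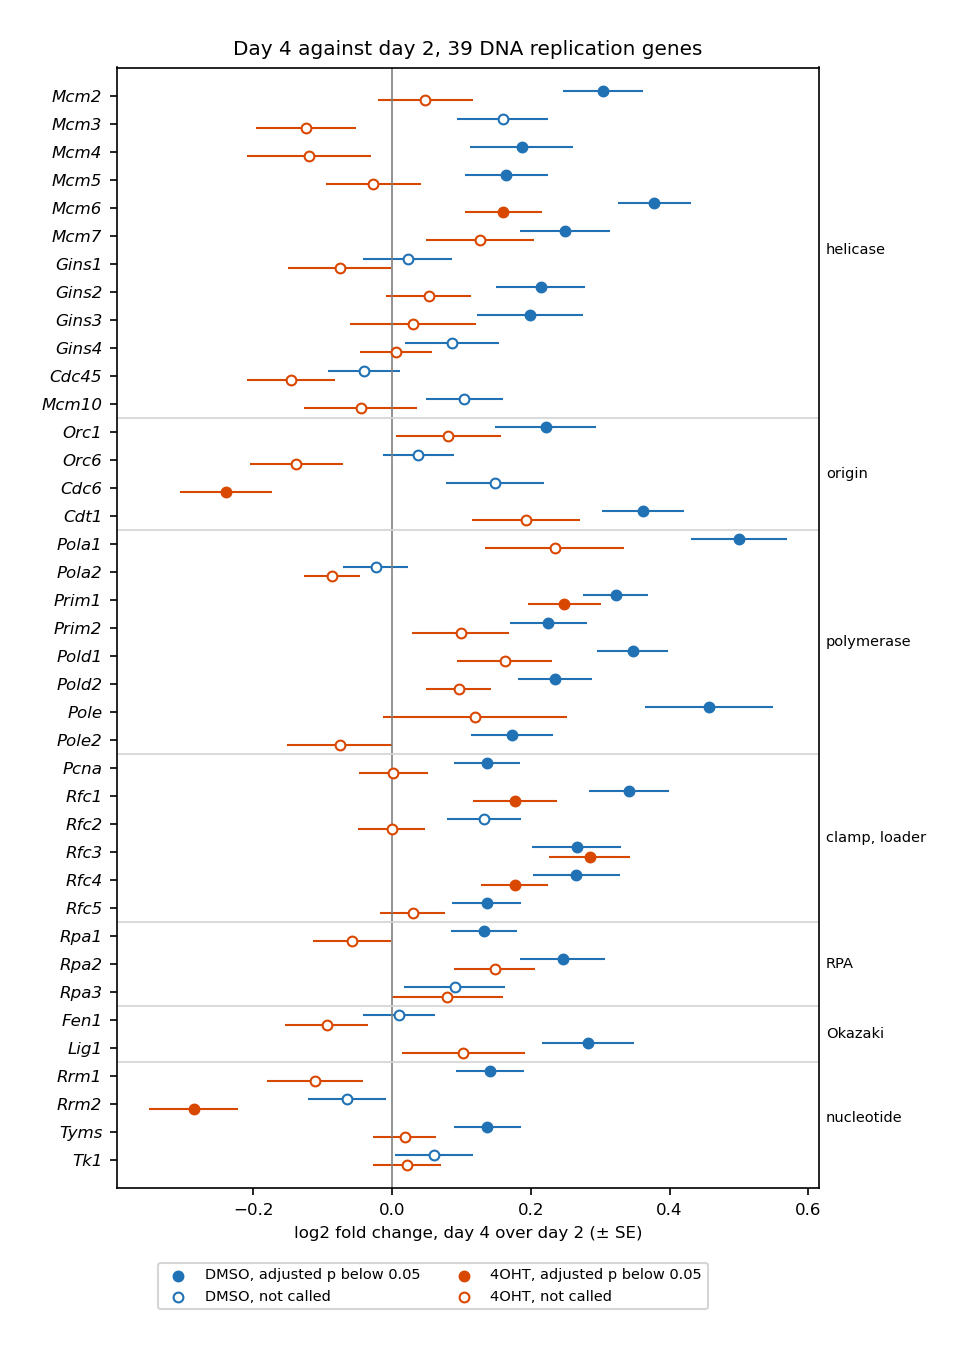
The log2 fold change of day 4 over day 2 (horizontal axis, ± SE from edgeR, 4 against 4 libraries) is plotted for each of the 39 genes in DMSO (blue) and in 4OHT (red), with filled points at an adjusted p below 0.05. In DMSO 26 points are filled, all to the right of 0, and in 4OHT 5 are filled to the right and 2, Cdc6 and Rrm2, to the left.

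Levels were compared between genes per length, as CPM per kilobase of the principal mRNA (RPKM, mean of 16 libraries). Pcna was the most abundant at 143 RPKM, followed by Mcm6 at 67.9, Mcm7 at 65.2, Mcm5 at 49.6 and Tk1 at 48.2 RPKM. The ring subunits lay between 33.9 RPKM for Mcm4 and 67.9 RPKM for Mcm6. Catalytic subunits stood below accessory subunits for polymerases alpha and delta, with Pola1 at 7.89 RPKM against Pola2 at 40.2 and Pold1 at 23.8 against Pold2 at 45.1. Pole at 6.99 and Pole2 at 8.61 were closer. In DMSO at day 4 they lay within each other's spread, at 9.26 ± 1.45 and 9.49 ± 0.35 RPKM (SD, n = 4). Least abundant were Gins2 at 5.99, Orc1 at 5.14 and Gins3 at 2.86 RPKM. This order depends on the mRNA length used, which was 3900 bases for Gins2 and 1087 for Gins1. In CPM Gins2 stood above Gins1, at 23.1 against 14.1 CPM in DMSO at day 2. Neighbours in this order often lay within each other's spread, as the plot of levels shows, and no test between genes was made. Across the 39 genes the log2 fold change at day 4 had r of -0.12 with the log2 RPKM and -0.14 with the log2 mRNA length, which is a description with no test.

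**Figure D5:**
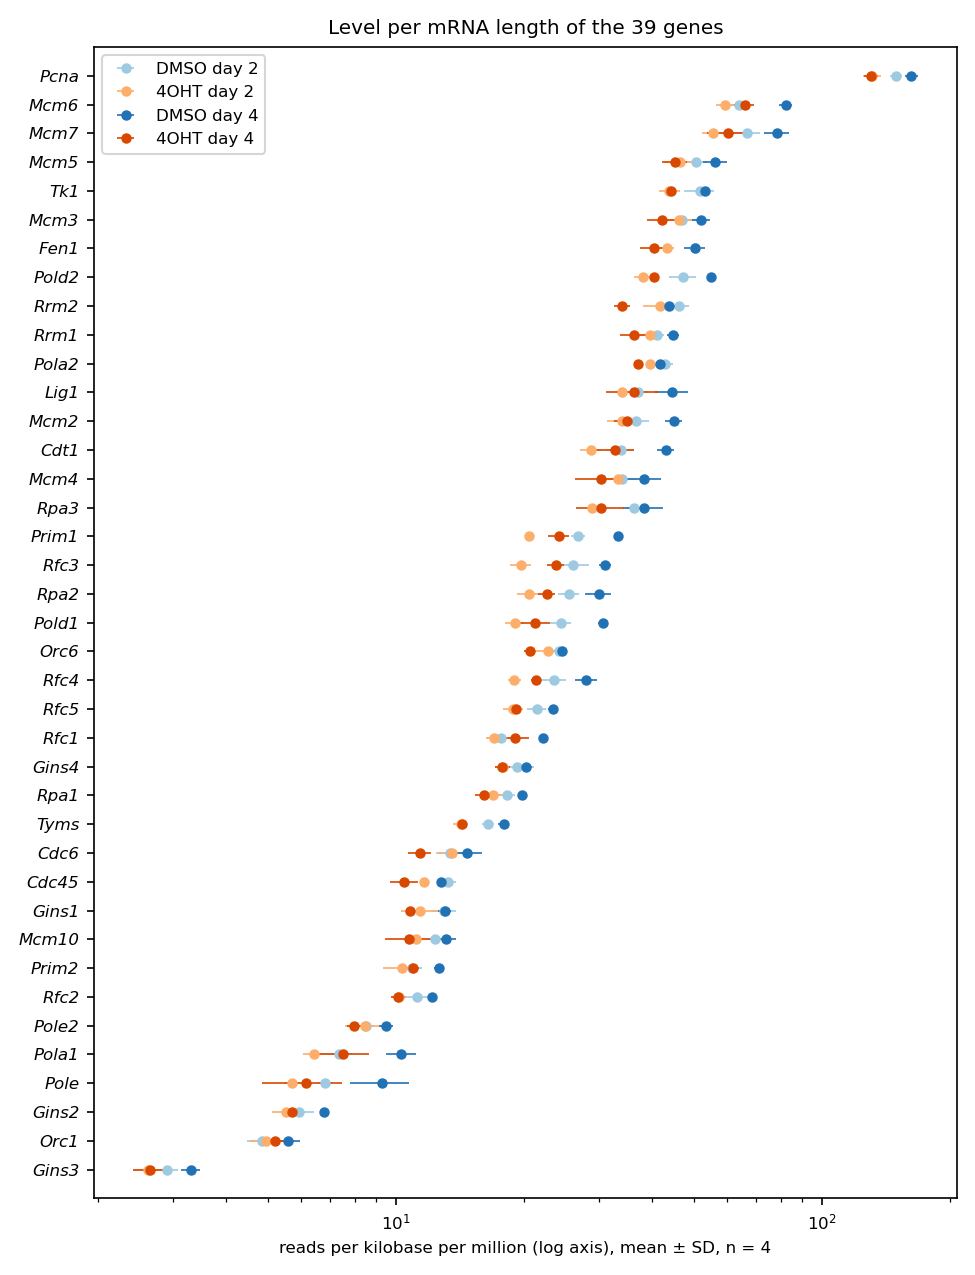
The level of each of the 39 genes is plotted in RPKM (horizontal log axis) as the mean ± SD of 4 libraries in each of the 4 groups, ordered by the mean of all 16. Means of all 16 libraries run from 2.86 for Gins3 to 143 for Pcna, and DMSO at day 4 (dark blue) is the rightmost group for 35 genes.

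Fold changes are given side by side for members with and without E2F letters in the promoter window. The 13 genes with a match (Mcm3, Mcm5, Mcm6, Mcm7, Gins3, Orc1, Cdc6, Cdt1, Pola1, Pold1, Pole2, Rfc3 and Lig1) had a median log2 fold change of -0.12 at day 2 and -0.32 at day 4, with 5 and 12 that fell. The 19 genes with a window and no match had medians of -0.18 and -0.31, with 12 and 19 that fell. The difference was not tested, and no match says only that these letters were not in the window.

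Lists of other genes that act with the members held more falls than rises at day 4. The counts of each list stand beside the shares over all genes tested. At day 2, 14.3% of all genes fell and 16.9% rose, and at day 4, 11.1% fell and 13.7% rose. Of 16 further origin and helicase-loading genes, 4 fell and 2 rose at day 2, and 10 fell at day 4 with the other 6 not called. Topbp1, which helps to load Cdc45, was at log2 -0.08 ± 0.06 at day 2 and fell at day 4 (-0.36 ± 0.06), and Mtbp, which acts at the same step, fell on both days (log2 -0.14 ± 0.04 and -0.34 ± 0.06). Mcmbp, an MCM-binding protein, fell at day 4 (log2 -0.15 ± 0.04). Of 17 further polymerase, fork and ligation genes, 6 fell and 1 rose at day 2 and 10 fell and 1 rose at day 4. Pclaf, a PCNA-binding protein, fell on both days (log2 -0.15 ± 0.05 and -0.35 ± 0.04), as did the fork protein gene Tipin (log2 -0.17 ± 0.05 and -0.43 ± 0.06), and Chtf8, of an alternative clamp loader, fell at day 4 (log2 -0.15 ± 0.05). Top1, a topoisomerase, was not called (log2 -0.05 ± 0.04 and -0.02 ± 0.04). The gene that rose was Pold4, the small subunit of polymerase delta, singled out after its values were seen, at log2 0.32 ± 0.06 (edgeR adjusted p = 0.00137) and 0.68 ± 0.17 (edgeR adjusted p = 0.0152).

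Of 12 genes of replication-coupled chromatin, 5 fell at day 2 and 10 at day 4, and the others were not called. Cdca7 fell (log2 -0.37 ± 0.06 and -0.43 ± 0.05), as did the histone chaperone gene Nasp (log2 -0.21 ± 0.05 and -0.35 ± 0.05). Ssrp1, of the FACT chaperone, and Dnmt1, the maintenance DNA methyltransferase, were not called on either day (log2 -0.11 ± 0.05 and -0.36 ± 0.14 at day 4). Of 11 further deoxynucleotide supply genes, 7 fell and 1 rose at day 2, and 7 fell at day 4 with the other 4 not called. Falls on both days were seen in Dut, which removes dUTP (log2 -0.26 ± 0.06 and -0.39 ± 0.05), Dck, a deoxynucleoside kinase (log2 -0.28 ± 0.07 and -0.48 ± 0.06), and Shmt1, which feeds folate to thymidylate synthesis (log2 -0.50 ± 0.04 and -0.56 ± 0.07). Samhd1, which breaks down deoxynucleotides, fell at day 2 (log2 -0.33 ± 0.05) and was at log2 -0.19 ± 0.08 at day 4. The gene that rose at day 2 was Rrm2b, named after its values were seen, the p53-induced small subunit of ribonucleotide reductase, at log2 0.37 ± 0.09 (edgeR adjusted p = 0.00856); at day 4 it stood at log2 0.23 ± 0.08 (edgeR adjusted p = 0.0605).

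Of 20 regulators of S phase, 4 fell and 1 rose at day 2 and 9 fell and 1 rose at day 4. Rbl1, a pocket protein of the retinoblastoma family, fell on both days (log2 -0.21 ± 0.07 and -0.39 ± 0.05), as did the E2F partner Tfdp2 (log2 -0.27 ± 0.06 and -0.33 ± 0.05). Ccna2, the cyclin of S phase, fell at day 4 (log2 -0.24 ± 0.04). Cdkn1a, an inhibitor of cyclin-dependent kinases, was the one that rose, at log2 0.25 ± 0.05 (edgeR adjusted p = 0.00428) and 0.56 ± 0.16 (edgeR adjusted p = 0.0277). Of 18 mitosis genes, 5 fell at day 2 and 13 at day 4, and the others were not called. Mad2l1 of the spindle checkpoint fell (log2 -0.19 ± 0.04 and -0.37 ± 0.05), as did the mitotic kinase gene Cdk1 (log2 -0.18 ± 0.05 and -0.28 ± 0.04). Top2a was not called at day 2 and fell at day 4 (log2 -0.31 ± 0.08), and the proliferation marker Mki67 was called on neither day (log2 0.08 ± 0.08 and -0.24 ± 0.18).

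Some counts carry a limit of their own. The strand setting of the counting is not given in the sources used here, and 12 members share exon bases with a gene on the opposite strand, most of all Gins2 with Gse1 (2758 bases) and Fen1 with Gm10143 (1909 bases), so their values are uncertain to that extent. Reads of Pcna and of Tyms may also be shared with their processed pseudogenes. In the authors' deposited table, 17 members had an edgeR and 16 a DESeq adjusted p below 0.05 at day 2, and 37 and 26 at day 4. Over all genes of that table, in either direction, these counts were 5014 and 3912 of 20790 at day 2. At day 4 they were 3750 and 2406 of 20658.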

How the data were processed

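Poly(A) libraries were made from 250 ng of total RNA with a directional second-strand kit, per the labels' protocols. STAR 2.4.0f1, bcl2fastq 1.8.4 and GRCm38 were used per the submitters' processing notes; neither the counting tool nor the annotation or strand setting is given in the sources used here. The authors deposited whole-number read counts per gene in 1 table per day, with genes of at least 10 reads over 8 libraries, and adjusted p-values from DESeq and edgeR, printed here as counts of genes only. At day 4, dates in place of 14 gene symbols were replaced by gene ID, and decimal commas (74 and 170 p-value cells) were read as points.

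Counts of all genes were tested with edgeR 4.0.16 (R 4.3.3, limma 3.58.1): libraries were scaled by TMM, low genes removed by filterByExpr, robust quasi-likelihood models fitted and p-values adjusted over all genes by Benjamini-Hochberg, with calls at an adjusted p below 0.05. Treatment comparisons used the 8 libraries of a day, day comparisons the 8 libraries of a treatment, and the interaction all 16. SE is the log2 fold change over the square root of F. Printed CPM are TMM-scaled over 16 libraries, and RPKM divide them by the length of the principal mRNA in GENCODE M21, whose coordinates are given. Where a gene had several principal mRNAs of equal rank, the longest was used. The test was also run on simulated counts. These held fewer changed genes than were called here and no pairing of libraries, and no result here rests on them.

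The members, the gene lists and the tests were chosen with earlier results of these data known. Every-library values are given for 24 members: in each role the one with the smallest p at day 4 and the one with the highest CPM, and each one called at day 2. From each other list, up to 2 genes with the smallest p at day 4 and 2 with the highest CPM are named.

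Replicate numbers come from the titles. Deviations of same-numbered libraries from their group means correlated at 0.63 to 0.81 at day 4, and 8 of 8 libraries there were closest to the one of their own number, which is taken as pairing. At day 2 the range was -0.11 to 0.47. Across the 2 days it was 0.07 to 0.19 for DMSO and -0.23 to 0.39 for 4OHT. The pairing is read from the data (9686 genes with log2 CPM above 3). None of the 24 within-group library pairs was as alike as counting noise alone would make a copy. Alternatives were DESeq2 1.42.0, DESeq2 size factors, no filter, 1 CPM in 4 libraries, a replicate block, all 16 libraries in one fit, and each library left out in turn. Reads carry no molecular identifiers.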

Additional observations from a re-analysis of the deposited data

Results flagged for a closer look

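Of 160 sets of 4 values checked (the 39 members and their sum, in 4 groups), 4 held a library far from the other 3 of its group by Dixon's ratio at the 95% level (0.829 for 4 samples), and chance gives about 1 in 20. Pole2 in DMSO at day 2 was low in replicate 3, at 13.5 CPM against 14.8 CPM in the others. Rrm1 in DMSO at day 2 was high in replicate 4, at 174 CPM against 159 to 161 CPM. Cdc6 in 4OHT at day 4 was high in replicate 2, at 31.9 CPM against 28.0 to 28.6 CPM. Prim1 in 4OHT at day 4 was low in replicate 4, at 35.0 CPM against 38.99 to 39.5 CPM.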

How the results depend on the processing

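No called fold change of a member changed sign under the alternatives. For the day 2 treatment comparison, members that fell numbered 17 to 20 across the tools, scalings, filters, the replicate block and the fit of 16 libraries, and 16 to 20 with a library left out; members that rose stayed at 0. At day 4, they numbered 37 to 38 and 33 to 37. In the interaction, members lower by edgeR were 0 in the main design, 1 by DESeq2 and 9 with the replicate block, and 0 to 1 with a library left out (1 without DMSO day 2 replicate 4 or 4OHT day 4 replicate 2). For day 4 against day 2 in DMSO, 26 members rose, and 15 to 23 with a library left out. The count was 17 with no filter, 18 with DESeq2 size factors in edgeR, and 28 with a filter of 1 CPM or the replicate block. In 4OHT, 5 members rose, 9 with a filter of 1 CPM, 3 with the replicate block, 8 in the fit of 16 libraries, and 3 to 9 with a library left out; 2 fell, 5 in the fit of 16 libraries and 2 to 5 with a library left out (5 without 4OHT day 4 replicate 2). The median log2 change of that comparison, 0.03, ranged from -0.004 to 0.05 with a library left out. With the replicate block at day 4, 7216 of all genes were called, against 3967 without it, and the block changed no call of a member there. At library totals of 63.8 to 93.3 M, the SD between libraries was at or below counting error in 10 of 156 sets of 1 member in 1 group, where depth also limits the values.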
